A study of Hordeum vulgare with 12 samples.

Results

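The peaks described here are the VRS5 binding regions at the tips of the barley chromosomes. They were chosen by position alone, as peaks whose summit lies in the outermost 20 Mb at either end of chromosomes 1H to 7H, with the high-coordinate end counted back from the last listed peak of each chromosome. In all, 3755 of the 99567 listed peaks met this rule. The rest of the 7 chromosomes held 95763, and the other 49 were on unplaced sequence. VRS5, the barley TB1, was cloned from cv. Bowman and used as a FLAG-tagged bait (TB1-FLAG in the labels) in 6 libraries, and GFP-FLAG was the control bait in 6 more. All 12 used naked, sonicated genomic DNA of cv. Morex from 100 mg of developing inflorescence, taken 4 weeks after sowing at about Waddington stage 4. The proteins were made in a wheat germ extract, so that no barley chromatin or partner protein was present. The reads of each bait were pooled before peaks were called, so that each peak has 1 value and no replicate error, and read totals of the libraries were not used here.

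VRS5 is a TCP transcription factor, a plant-specific family that binds short GC-rich sites in DNA. Its orthologs in cereals restrain axillary branching, and in barley it also holds back the lateral spikelets and thereby affects row-type. In barley the ends of the chromosomes are rich in genes and recombine often, whereas the large inner part is rich in repeats and poor in genes.

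VRS5 peaks were sparser at the chromosome ends than elsewhere. The 14 ends together make up 6.67% of the length of 1H to 7H and held 3.77% of their peaks. This gave 13.4 peaks per Mb (95% Poisson interval 12.99 to 13.8), against 24.5 per Mb in the rest (24.3 to 24.6). The ratio of the densities was 0.548 (95% interval 0.531 to 0.566, exact conditional test of 2 Poisson rates). All intervals given here reflect counting error alone, with each peak taken as an independent event. Over the 280 blocks of 1 Mb at the ends, the variance of the peak count was 2.43 times its mean, so that peaks were spread less evenly than the intervals assume.

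Each of the 14 ends had fewer peaks per Mb than the rest of its own chromosome. The sparsest was the low-coordinate end of 6H, with 200 peaks or 10 per Mb, followed by the low end of 7H with 214 peaks. Chromosome 3H had almost the same number at both of its ends, 218 at the low and 217 at the high one. The low end of 1H held 241 peaks, the high end of 7H 247, the low end of 2H 259 and its high end 276. These ends all lay between 10 and 13.8 peaks per Mb. Next came the high ends of 6H with 292 peaks, of 4H with 300, of 1H with 305 and of 5H with 308. The most peaks lay at the low end of 5H, with 331, and at the low end of 4H, with 347 or 17.4 per Mb. Neighbours in this order did not differ beyond counting error (exact conditional tests, adjusted p = 1 for all 13 pairs by Benjamini-Hochberg). They were ranked by the counts compared, however, which keeps each difference small. These tests thus do not show that neighbours are alike, and say nothing of ends further apart in the order. The rests of the chromosomes were much more alike, between 23.9 per Mb on 7H and 25.2 per Mb on 4H. The ratio of end to rest was lowest at the low end of 6H, at 0.405 (0.351 to 0.466), and highest at the low end of 4H, at 0.689 (0.618 to 0.767). The largest adjusted p over the 14 ends was 4.58e-13, by the exact conditional test with Benjamini-Hochberg adjustment.

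**Figure D1:**
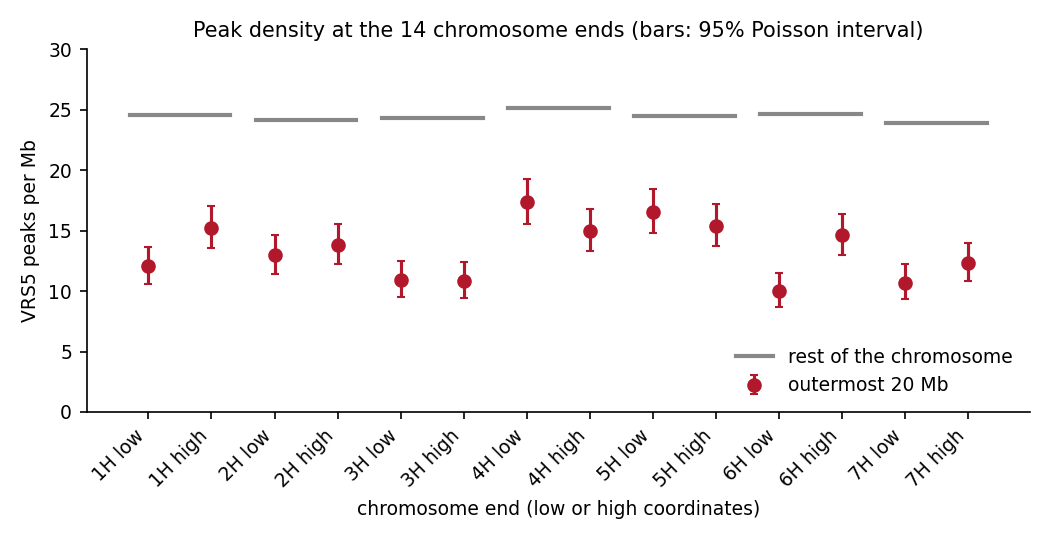
VRS5 peaks per Mb at each of the 14 chromosome ends (points, with 95% Poisson intervals) and in the rest of the same chromosome (grey lines). The ends sit between 10 and 17.4 per Mb, all below the rests at 23.9 to 25.2 per Mb.

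Set beside other stretches of the same length, the ends were near the bottom of the range. The 193 whole windows of 20 Mb between the ends held 24.6 ± 3.10 peaks per Mb (mean and SD over windows), and the 14 ends 13.4 ± 2.35. For 13 of the ends, no inner window of the same chromosome had fewer peaks. The exception was the low end of 5H, below which 1 of 27 windows fell. Of the inner windows, 9 had no more peaks than the fullest end. The lowest lay on 3H from 580000001 to 600000000, next to the high end, with 13.6 peaks per Mb. Not all of these windows adjoined an end, and that on 3H from 260000001 to 280000000 had 14.9 peaks per Mb and 1.25 protein-coding genes per Mb. The others of the 9 were richer in genes, with 13.3 to 22.3 per Mb, against a median of 4.65 per Mb over all 193 inner windows.

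The ends of a chromosome were compared with each other. On 6H the low end had 0.685 times the density of the high end (0.569 to 0.823, adjusted p = 0.000273 over 7 chromosomes by Benjamini-Hochberg, exact conditional test). On 1H the ratio was 0.790 (0.665 to 0.939, adjusted p = 0.0244, exact conditional test). For the other 5 chromosomes the interval of the ratio included 1, from 0.866 on 7H (0.718 to 1.04) to 1.16 on 4H (0.988 to 1.35). Summed over chromosomes, the low ends held 1810 peaks and the high ends 1945.

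The density rose inwards along the ends. From the tip to 5 Mb it was 11.9 peaks per Mb (11.1 to 12.8), then 12.9 from 5 to 10 Mb, 13.8 from 10 to 15 Mb and 15.1 from 15 to 20 Mb (14.2 to 16.02). The innermost of these steps had 1.27 times the density of the outermost (1.16 to 1.39, p = 3.6e-07 by the exact conditional test), and was the higher one at 11 of the 14 ends. Across the 20 Mb limit, the step from 20 to 25 Mb, with 16.2 per Mb, had 1.07 times the density of the step from 15 to 20 Mb (0.986 to 1.17, p = 0.104 by the exact conditional test), and was the higher one at 7 of the 14 ends. From 55 to 60 Mb the density was 23.2 per Mb. Within the outermost 5 Mb the lowest value was not at the very tip. The first 1 Mb held 13.8 peaks per Mb (11.9 to 15.9) and the step from 4 to 5 Mb 9.86 (8.28 to 11.6). At the high ends the first 1 Mb starts by rule at the last listed peak, which leaves out any stretch without peaks beyond it. The step from 4 to 5 Mb was singled out as the lowest. Protein-coding genes ran the other way over the longer distance, from 22.4 per Mb in the outermost 5 Mb to 11.8 per Mb between 55 and 60 Mb. On either side of the 20 Mb limit the peaks were alike, with 209 in the last 1 Mb inside it (median fold enrichment 4.47) and 220 in the first 1 Mb outside (4.43). The members closest to the limit were a peak on 2H with its summit at 19998118, enriched 6.19-fold, and the first peak left out was on 5H with its summit at 20001167, enriched 4.44-fold.

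**Figure D2:**
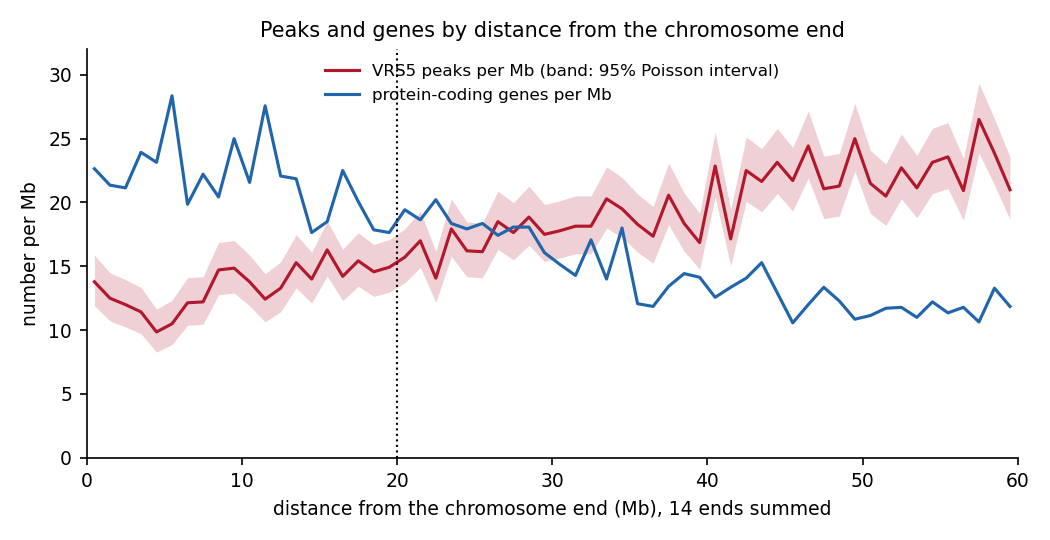
VRS5 peaks per Mb (red, band: 95% Poisson interval) and protein-coding genes per Mb (blue) against distance from the chromosome end in Mb, in steps of 1 Mb summed over the 14 ends. Peaks rise from 11.9 per Mb in the outermost 5 Mb to 23.2 per Mb at 55 to 60 Mb while genes fall from 22.4 to 11.8 per Mb; the dotted line marks 20 Mb.

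Peaks at the ends lay closer to genes than those of the rest, in stretches that also hold more genes. The distances were measured from summits to the spans of the RefSeq protein-coding genes of the MorexV3 assembly, of which 6095 of 30627, or 19.9%, have their midpoint at an end (13 lie beyond the last listed peak and belong to neither part). The median summit at the ends lay 23.98 kb away from the closest such gene (quartiles 9.03 and 50.7 kb), and in the rest 83.9 kb (35.9 and 176 kb). Summits within 15 kb of a gene, the window in which the study assigned targets, made up 1372 of the 3755, or 36.5% (95% Wilson interval 35.0 to 38.1). Over all peaks of 1H to 7H this share was 11.8%, and in the rest 10.9% (10.7 to 11.1), so that the ends exceeded the rest by 25.7 percentage points (Newcombe interval 24.1 to 27.2). Among the ends the share ran from 23.9% at the low end of 5H, which has the fewest genes (14.7 per Mb), to 55.1% at the low end of 7H (23.6 genes per Mb). The summits of 117 peaks, 3.12% (2.61 to 3.72), fell inside a gene, against 0.694% in the rest. Length within 15 kb of a gene made up 47.4% of the outermost 10 Mb and 44.4% from 10 to 20 Mb. It made up 13.6% of the part more than 60 Mb from an end, and more in between. At the ends and in the rest, the share of summits near genes was thus below that of length.

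The ends also had fewer summits than the rest at like distances from genes. Genes and their flanks of 15 kb took up 8.19% (bodies), 16.54% (up to 5 kb) and 21.2% (5 to 15 kb) of the ends, and 2.89, 5.04 and 8.44% of the rest. Inside gene bodies the densities of the ends and the rest could not be told apart, at 5.101 and 5.89 summits per Mb (ratio 0.867, 0.706 to 1.06, adjusted p = 0.166, exact conditional test). In every other class the ends were lower. Up to 5 kb from a gene they had 10.8 summits per Mb, against 15.8 in the rest (ratio 0.685, 0.622 to 0.753). From 15 to 50 kb they had 16.1 against 24.9 (ratio 0.646, 0.612 to 0.681). The ratio was lowest more than 100 kb from any protein-coding gene, at 13.3 against 26.2 summits per Mb (0.507, 0.454 to 0.565, adjusted p = 7.52e-43, exact conditional test with Benjamini-Hochberg adjustment over 6 classes). Had each class of distance the density of the rest, the ends would hold 21.2 peaks per Mb in place of the 13.4 observed.

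**Figure D3:**
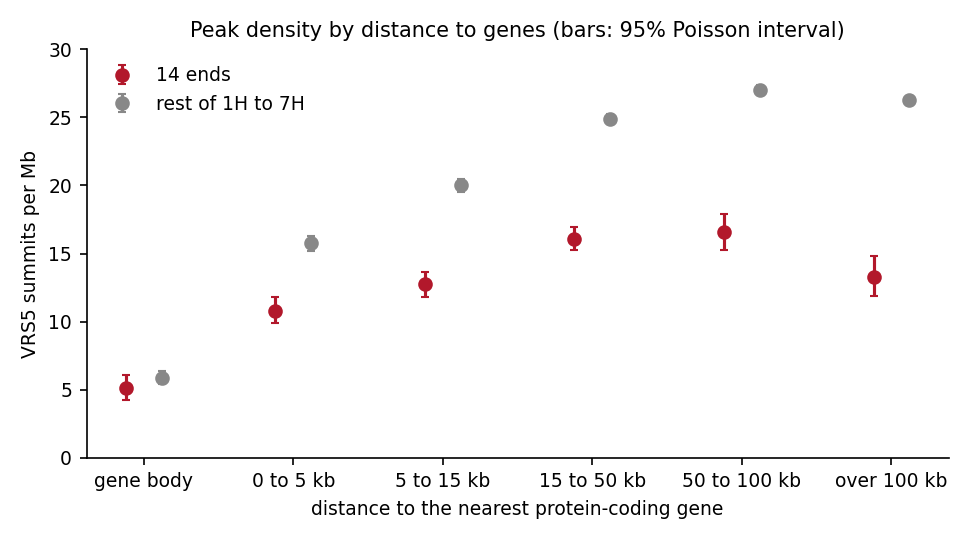
VRS5 summits per Mb by distance to the nearest protein-coding gene, at the 14 ends (red) and in the rest of 1H to 7H (grey), with 95% Poisson intervals. The ends lie below the rest in each class outside gene bodies, and furthest below beyond 100 kb, at 13.3 against 26.2 per Mb.

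The lower density far from genes was seen at each end, in a comparison added after the classes had been compared. More than 50 kb from a gene, the 14 ends had between 7.99 summits per Mb (low end of 7H) and 21.3 per Mb (low end of 4H), and the rests of their chromosomes between 26.2 and 27.2. Within 15 kb of a gene the ends had 7.77 to 12.7 and the rests 15.3 to 17.3. The interval of the ratio lay below 1 for all 14 ends in both classes (largest adjusted p = 0.0111, exact conditional test). Beyond 50 kb from genes the density also rose inwards, from 13.6 per Mb in the outermost 10 Mb to 16.9 per Mb from 10 to 20 Mb, 21.2 from 20 to 40 Mb and 26.6 from 40 to 60 Mb. Further in, it stayed at that level, at 26.7 per Mb.

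Blocks of 1 Mb with like numbers of genes gave the same order. With 21 to 30 protein-coding genes in the block, the 109 blocks at the ends held 12.7 ± 5.07 peaks (mean and SD over blocks) and the 126 blocks of the rest 17.4 ± 5.41. With 11 to 15 genes, 40 blocks at the ends held 13.8 ± 5.64 and 346 of the rest 22.5 ± 6.22. The means of the ends were lower in all 6 classes, with ratios of 0.518 to 0.751, and the SDs of the ends and the rest overlapped in each class. Only 8 blocks at the ends had 5 genes or fewer. Weighted to the gene numbers of the end blocks, the rest held 18.9 peaks per Mb. Across the 14 ends themselves, the densities of peaks and of protein-coding genes had a Pearson r of -0.41 and a Spearman rho of -0.30, given as a description of 14 stretches that share 1 pair of pooled libraries.

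**Figure D4:**
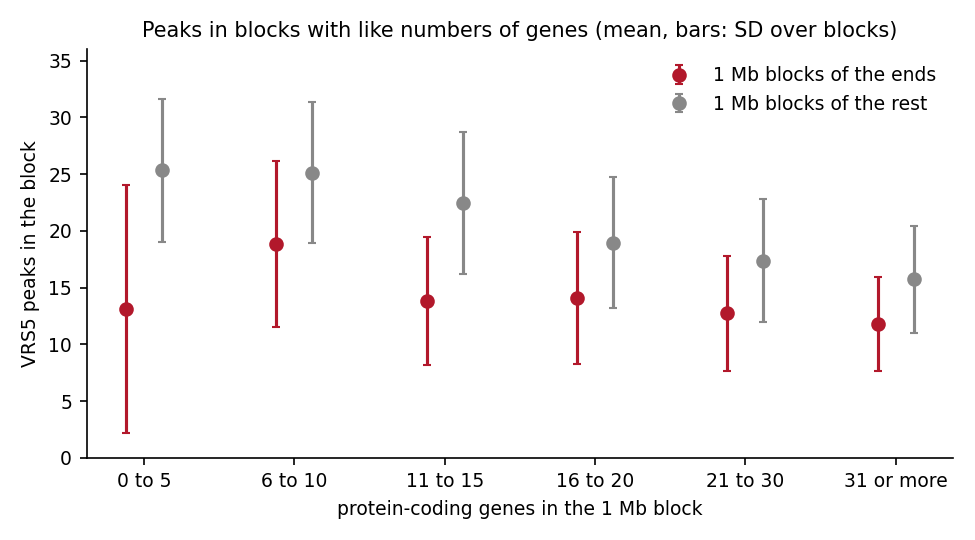
VRS5 peaks in 1 Mb blocks grouped by the number of protein-coding genes they hold, at the ends (red) and in the rest (grey), as mean and SD over blocks. The ends are lower in each group, for example 12.7 against 17.4 peaks with 21 to 30 genes, and the SD bars overlap.

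A gene at a chromosome end was less likely to have a VRS5 peak in reach. Of the 6095 protein-coding genes at the ends, 1599 (26.2%, 25.1 to 27.4) had at least 1 summit within 15 kb, against 36.2% of all genes tested and 38.7% of those in the rest (38.1 to 39.3). The ends fell short of the rest by 12.5 percentage points (Newcombe interval of the difference -13.7 to -11.2). Among the ends this share ran from 20.8% at the low end of 3H to 31.7% at the high end of 7H, in each case below that of the rest of the same chromosome (36.8 to 41.1%). Genes with a single summit numbered 1266, and 333 had more. A summit counts for every gene within 15 kb of it, so that neighbouring genes are not separate observations.

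LOC123429121 on 2H, from 9633351 to 9640383, had the most summits within 15 kb, with 5, of which 2 lay on the side of lower coordinates, 1 inside the gene and 2 beyond it. Their fold enrichments were 3.99 to 5.78. With 4 summits each, 7 genes shared the next place. Among these, LOC123408607 on 7H from 5647415 to 5663075 had 2 of its summits inside the gene, and LOC123447312 on 4H from 13049389 to 13051503 had all 4 on the side of lower coordinates. LOC123404849 on 6H from 6093630 to 6093899 had 2 on either side, the strongest enriched 7.05-fold. LOC123419005 on 1H from 496775440 to 496776031 also had 2 on either side, enriched 2.75- to 6.00-fold. The annotation used gives these genes no name or function. LOC123410909, close to the tip of 7H from 305370 to 308847, had 4 summits as well, and the strongest peak of the low end of 7H is among them.

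The peaks at the ends were about as strong as the others. Fold enrichment is the pileup of VRS5-FLAG reads at the summit over the GFP-FLAG background around it, after 1 is added to both. Its median was 4.34 at the ends (quartiles 3.86 and 5.11) and 4.39 in the rest (3.86 and 5.21). Among the ends the median ran from 4.21 at the high end of 4H to 4.45 at the high end of 1H. The upper quartile of all peaks, 5.21, was exceeded by 23.2% of the peaks at the ends (21.8 to 24.5), against 25% of all peaks by definition and 25.1% of the rest (24.8 to 25.3). Among the ends this share ran from 18.6% at the high end of 7H to 28.1% at the low end of 5H. It was above that of the rest of the chromosome at the low ends of 2H and 5H and the high end of 3H, and below it at the others. The difference between all ends together and the rest was -1.90 percentage points (Newcombe interval -3.25 to -0.500). Without chromosome 4H it was -1.54 (-3.03 to 0.0109) and without 7H -1.34 (-2.79 to 0.174), and both intervals then include 0. Width did not set the ends apart, with medians of 277 and 273 bp. At the ends and in the rest, 8.20% of the peaks were wider than 500 bp (difference 0.00716 percentage points, -0.847 to 0.944).

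At the summits of the listed peaks, the VRS5-FLAG pileup and the GFP-FLAG background were both somewhat lower over all ends together than in the rest. The median pileup was 51 at the ends (quartiles 44 and 61) and 54 in the rest (46 and 64), and the median background 10.6 (8.84 and 13.03) against 10.9 (9.33 and 13.5). Single ends varied in background. Its median was above that of the rest of the chromosome at the low end of 3H (11.2 against 10.9). It equalled that of the rest at the low ends of 1H and 7H and the high ends of 2H and 7H, and was lower at the others. A background at the lowest value in the list, 6.91, was found for 226 peaks at the ends, 6.02%, and 2.02% of the rest. The part of background in the differences in density was not tested. Within 5 classes of like background, the share above 5.21-fold was lower at the ends by 1.66 to 5.24 percentage points, and the intervals of the 2 classes with the highest background included 0. That lowest value follows from the genome size of 5.4e9 given to the peak caller, and would be 8.89 had the summed length of the assembled chromosomes been used. The share above the upper quartile then was lower by 3.92 percentage points at the ends.

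**Figure D5:**
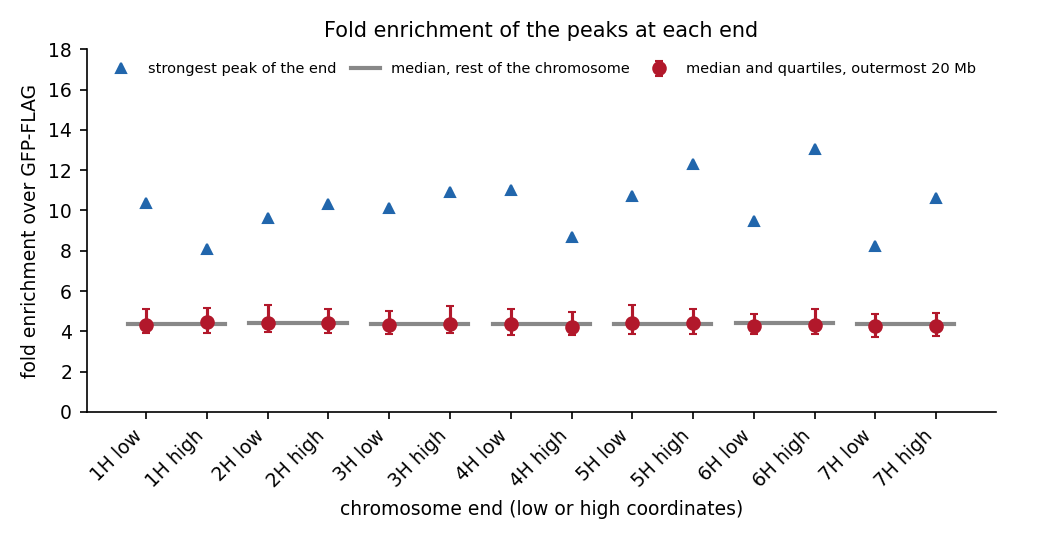
Fold enrichment over GFP-FLAG of the peaks at each chromosome end, as median and quartiles (red), with the strongest peak of the end (blue triangles) and the median of the rest of the chromosome (grey lines). Medians of the ends lie between 4.21 and 4.45 and those of the rests between 4.37 and 4.41, while the strongest peaks range from 8.08- to 13.03-fold.

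The shortfall at the ends was larger among peaks with smaller q values. With q below 1e-20 the ends held 1023 peaks and the ratio of the densities was 0.466 (0.437 to 0.496), and with q below 1e-50 they held 43 and it was 0.358 (0.258 to 0.484). These sets are contained in each other and in the full list. Of the 450 peaks enriched more than 10-fold in the whole list, 14 lay at the ends, which is 0.373% of the end peaks against 0.455% of the rest (difference -0.0825 percentage points, -0.240 to 0.173).

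By the deposited fold enrichment, the strongest peak at any end lay on 6H from 558285835 to 558286149, 3.44 Mb from the tip. It had a pileup of 102 over a background of 6.91, that is a 13.03-fold enrichment, with 75.3 as its -log10 q, and ranked 22 among all peaks. The closest protein-coding gene, LOC123405891, lay 140 kb away. Next was a peak on 5H from 570391470 to 570391807, enriched 12.3-fold with a pileup of 107, 50.8 kb from LOC123394911. The low end of 4H reached 11-fold, in a peak at 19332327 to 19332650 with LOC123447517 at 52.2 kb. At the high end of 3H it was a peak from 602194307 to 602194621, enriched 10.9-fold and 19.01 kb from LOC123442205. These 4 peaks all had their summits beyond 15 kb of a gene.

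Strongest peaks closer to genes were found at 3 of the 14 ends. The high end of 7H had a 10.6-fold enriched peak at 626304280 to 626304819, with a pileup of 121, at 7.73 kb from LOC123413266. The low end of 3H had one of 10.1-fold at 11604245 to 11604505, at 4.12 kb from LOC123442503. The third, at the low end of 7H from 310634 to 311147, was enriched 8.22-fold, with its summit 2.17 kb from LOC123410909. Over the 14 ends, the strongest peaks were enriched 8.08- to 13.03-fold and lay a median of 30.6 kb from the nearest gene.

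The remaining strongest peaks were further from genes. The low end of 5H had a 10.7-fold enriched peak at 4250371 to 4250685, at 36.2 kb from LOC123398761. That of the low end of 1H, at 10637025 to 10637282, reached 10.4-fold, with LOC123443121 at 77.9 kb. At the high end of 2H, the peak from 646998511 to 646999264 was enriched 10.30-fold, had a pileup of 134 and the highest -log10 q at the ends, 84.2, and lay 201 kb from LOC123431197. Those of the low ends of 2H (9.62-fold, nearest gene LOC123430470 at 16.47 kb) and 6H (9.48-fold, LOC123403106 at 19.1 kb) were weaker. The high ends of 4H (8.69-fold, LOC123450050 at 105 kb) and 1H (8.08-fold, LOC123452336 at 25.01 kb) had the lowest maxima apart from the low end of 7H. For 5 of the 14, the background was at its lowest value. With the floor of 8.89, an alternative added after seeing the data, the fold enrichment of 10 of the 14 would be lower and their order would change. The 6H peak would then be enriched 10.4-fold. Those of the high end of 5H (10.9-fold), the low end of 5H (10.7-fold) and the high end of 7H (10.6-fold) would exceed it. Another peak of the low end of 4H, from 19342549 to 19342826, would also exceed it, at 10.5-fold. It would stand above the peak listed here for that end, which would fall to 8.80-fold.

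Inside genes, the strongest peak at the ends lay in LOC123449900 on 4H, from 596288570 to 596289079, enriched 8.11-fold with a pileup of 108. The tallest pileup at any end, 152 reads, was also inside a gene, LOC123413596 on 7H, from 10047434 to 10048129. Its background of 20.3 was high and its fold enrichment 7.19, which placed it at rank 4836 of the list by that measure. Both were singled out after their values had been seen.

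Peaks at the ends stood further apart than elsewhere. The median gap between neighbouring summits was 39.0 kb at the ends (quartiles 12.9 and 97.1 kb) and 24.6 kb in the rest (9.51 and 55.3 kb). Close neighbours were nevertheless as common, with 2.93% of the peaks at the ends and 3.04% in the rest less than 1 kb from another summit (difference -0.108 percentage points, -0.614 to 0.491). Distances that recur across the whole list were examined, since they were known from earlier results on these data. Pairs of summits about 10 kb apart numbered 55 and took in 2.90% of the peaks at the ends, against 4.76% in the rest. As a share of all pairs of summits 1 to 20 kb apart, they made up 3.62% of 1518 pairs at the ends and 4.15% of 55624 pairs in the rest (difference -0.526 percentage points, -1.37 to 0.549). For pairs 3.6 kb or slightly more apart the shares were 1.38 and 2.09% (difference -0.704, -1.20 to 0.0276). For the other recurrent distances, above 5.1 kb and around 6.5 kb, they differed by 0.00450 and -0.0384 percentage points, with intervals that included 0.

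Several of the strongest peaks at the ends belonged to pairs about 10 kb apart, which was noticed after their values had been seen. On 4H, the peak from 19332327 to 19332650, enriched 11-fold, had a neighbour from 19342549 to 19342826, enriched 10.6-fold, at a distance of 10.23 kb. The 13.03-fold peak on 6H had a partner enriched 7.96-fold 10.1 kb away, from 558275710 to 558275974. Similar partners stood beside the strongest peaks of the high end of 3H (7.82-fold, 10.1 kb away) and the low end of 1H (7.69-fold, 10.18 kb away). These pairs lay on 4 different chromosomes. Strong peaks of the rest were not examined for such partners, so that this is not shown to be a trait of the ends.

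The density varied within the ends. Blocks of 1 Mb held between 1 and 33 peaks, with a median of 13, and in the rest between 0 and 52 with a median of 24. The fullest 2 blocks were neighbours on 5H, from 12000001 to 13000000 with 4 protein-coding genes and from 13000001 to 14000000 with 8, each with 33 peaks. A single peak was found on 1H from 18000001 to 19000000, where no protein-coding gene is annotated, and on 7H from 629032120 to 630032119, with 3 such genes. Both belong to the longest stretches without a summit at any end, of 1413 kb on 1H (18003148 to 19416641) and 1142 kb on 7H (628882601 to 630024541). No gene of any kind is annotated in the former, and no greenscreen region covers either. Another stretch without a summit, 539 kb close to the tip at the high end of 4H (609691354 to 610230100), had 51 protein-coding genes. Greenscreen regions, where peaks were removed, covered 10.9% of it.

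Regions removed by the authors for high GFP-FLAG signal, the greenscreen regions, covered somewhat less of the ends than of the rest. They took up 5.77% of the ends, with 4.33 regions per Mb, and 6.53% of the rest, with 5.01 per Mb. Their median fold enrichment in GFP-FLAG, whose background is not stated, was 4.73 and 4.69. Among the ends the cover ran from 2.94% at the high end of 3H to 8.85% at the low end of 4H, the end with the most peaks. Over the length outside these regions the ends had 14.2 peaks per Mb and the rest 26.2, a ratio of 0.544 (0.526 to 0.562).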

How the data were processed

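DAP-seq libraries (6 VRS5-FLAG, 6 GFP-FLAG) were processed by the authors, and the submitters' processing notes name MACS2 2.2.7.1, BWA 0.7.17, bedtools and Trimmomatic 0.39. Reads were mapped to MorexV3, pooled per bait and peaks called against GFP-FLAG with a genome size of 5.4e9. Peaks on greenscreen regions were removed and those with q below 1e-10 kept. The deposited peak list gives the pileup signal, the fold enrichment ratio, and -log10 p and -log10 q values per peak. The greenscreen list deposited by the authors holds a score derived from -log10 q and a fold enrichment ratio per region.

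The background was computed back from pileup and fold enrichment. A Poisson tail with it gave the deposited -log10 p to within 0.00071. Gene spans are those of RefSeq for MorexV3. Densities were compared by exact conditional tests of 2 Poisson rates (two-sided, Benjamini-Hochberg adjustment) and shares by Newcombe intervals, at 95%. On simulated peaks with a true density ratio of 0.5, the mean recovered ratio was 0.503 over 20 draws. These peaks were placed independently of each other, so that this does not check the intervals for unevenly spread peaks. Named genes were those nearest to the strongest peak of each end and those with the most summits within 15 kb, and 2 genes that hold a strong or tall peak were added after their values were seen. The members, lists and tests were chosen with earlier results of these data known. Alternatives varied the width of the ends, q, the position of a peak, merging, the gene window and set, the compared length and the chromosomes. The scripts ran on scipy 1.17.1, pandas 2.3.3, numpy 2.4.6, matplotlib 3.10.9 and Python 3.11.15. No genome sequence was used, so that motifs and promoters were not analysed here, and genes the study names could not be placed at an end.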

Additional observations from a re-analysis of the deposited data

Results flagged for a closer look

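On 2 chromosomes the counts at the low- and the high-coordinate end differed beyond counting error. The tests below leave out the spread between stretches of this length, an SD of 3.10 peaks per Mb over the 193 inner windows. On 6H the low end had 10 peaks per Mb and the high end 14.6, a ratio of 0.685 (adjusted p = 0.000273, exact conditional test over 7 chromosomes). The low end of 1H had 12.1 and the high end 15.3, a ratio of 0.790 (adjusted p = 0.0244, exact conditional test). These ends of 6H hold 22.7 and 23.2 protein-coding genes per Mb and those of 1H 21.1 and 24.5. The longest stretch without a summit at the low end of 1H, 1413 kb, is part of that end.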

How the results depend on the processing

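No paired analysis was possible because peaks were called on reads pooled over libraries, which leaves no replicate values to pair or to leave out. The number of peaks at the ends was 1736 with ends of 10 Mb, 6129 with 30 Mb, 1023 with q below 1e-20 and 43 with q below 1e-50, by construction. The ratio of densities stayed below 1 under all 18 alternatives, from 0.358 to 0.756, the highest with the adjacent 20 Mb in place of the whole rest. Weighted to the gene distances of the ends it was 0.633 and to the gene numbers of their blocks 0.710, both chosen after seeing the data. The difference in the share of peaks above 5.21-fold turned to 1.22 percentage points with q below 1e-20 (-1.65 to 3.92; the cause was not tested) and was 0 with q below 1e-50, where all peaks exceed that value; without 4H it was -1.54 and without 7H -1.34. The differences in the shares near genes and of genes with a summit kept their direction, with intervals that excluded 0, under all 16 alternatives each. None of these set the share near genes against the larger length near genes at the ends. With 43 peaks the interval of the density ratio ran from 0.258 to 0.484, and sequencing depth per library was not analysed here. The higher background floor was also an alternative chosen after seeing the data. Promoters and motifs were not run.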

Other observations

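For 4 of the 5 classes of genes that make no protein and occur at the ends, the share with a summit within 15 kb was lower there than in the rest, with Newcombe intervals of the difference below 0. Of the 570 genes of long non-coding RNA at the ends, 144 (25.3%, 21.9 to 29.0) had a summit within 15 kb, against 40.3% in the rest. For pseudogenes it was 291 of 1051 (27.7%, 25.1 to 30.5) against 40.1%. Genes of tRNA, the RNA that carries amino acids to the ribosome, were reached in 40 of 270 cases (14.8%, 11.1 to 19.5), against 30.6% in the rest. Those of snoRNA were reached in 46 of 243 (18.9%, 14.5 to 24.3), against 38.1%. For snRNA genes it was 3 of 14 (21.4%) against 37.7%, and the interval of the difference, -32.2 to 10.9 percentage points, included 0. No summit lay inside a tRNA or snoRNA gene at the ends. The ends held 27.5% of the tRNA genes of 1H to 7H, but none of the 8416 annotated rRNA genes.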
